A study of Mus musculus with 2 samples.

Results

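The locus of miR-191 and miR-425 gives rise to 4 mature miRNAs, mmu-miR-191-5p, mmu-miR-191-3p, mmu-miR-425-5p and mmu-miR-425-3p, out of 1915 distinct mature miRNAs listed for the exosomes of CT26 cells. CT26 is an established mouse colon carcinoma line of the Balb/C strain, and the labels name no engineered allele. Exosomes, called exosome-like vesicles in the labels, were collected by ultracentrifugation from parental CT26 cells and from sphere-derived cancer stem cells (SDCSCs). The SDCSCs are CT26 spheroids expanded for 2 weeks in serum-free DMEM/F12 with 10 ng/ml bFGF, 10 ng/ml EGF and N2 supplements, whereas parental cells were kept in DMEM with exosome-depleted serum during collection. Each condition has 1 small RNA library and no replicate, so that cell state, culture medium and library preparation cannot be told apart. The 4 members were chosen by name, both arms of each of the 2 hairpins, with their read values in these libraries already known. Their levels are therefore given as a description, with intervals for counting error and without a test.

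A miRNA is cut from a hairpin precursor, first by Drosha in the nucleus and then by Dicer in the cytoplasm. The resulting duplex holds a 5p and a 3p strand, of which usually a single strand, the guide, is kept by an Argonaute protein and the other, the passenger, is degraded. The guide recognizes messenger RNAs mainly through its seed, bases 2 to 8 from the 5′ end. The hairpins miR-191 and miR-425 lie next to each other and are described as products of one transcript with the host gene Dalrd3, whose protein assists the methylation of certain tRNAs. miR-191-5p is found in many tissues and often serves as a reference in qPCR assays, and both miR-191-5p and miR-425-5p have been linked to proliferation of carcinoma cells.

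The mature sequences, taken from RefSeq with coordinates in GRCm38.p6, the assembly called mm10 in the labels, are shown because they identify what was counted and which targets each strand can recognize. The capitals mark the seed. All 4 lie on the plus strand of chromosome 9.
mmu-miR-191-5p: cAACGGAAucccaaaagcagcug
mmu-miR-191-3p: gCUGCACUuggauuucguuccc
mmu-miR-425-5p: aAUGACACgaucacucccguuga
mmu-miR-425-3p: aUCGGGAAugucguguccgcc

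No seed was shared among the 4 members, so that the strands would be assigned to 4 separate seed groups. Among the 1679 mature sequences of the RefSeq table, miR-489-3p alone had the seed of miR-425-5p, and the seeds of the other members had no match. miR-489-3p had 0 reads in both libraries. Over the first 18 bases, the closest other sequence to miR-191-5p differed at 7 positions and the closest to miR-425-5p at 8 positions. Reads of these miRNAs are thus unlike those of any other listed sequence, within the 1623 of 1915 file names that were matched to the table.

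The hairpins are shown next with both mature arms in capitals, since the arms are compared below. Mir191 spans chr9:108568319-108568392 and Mir425 spans chr9:108568777-108568861, with 384 bases between them.
Mir191: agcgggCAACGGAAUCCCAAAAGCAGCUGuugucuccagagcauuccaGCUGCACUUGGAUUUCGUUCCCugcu
Mir425: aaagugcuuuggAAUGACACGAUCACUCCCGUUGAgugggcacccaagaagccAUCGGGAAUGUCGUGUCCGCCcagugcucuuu

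When folded with RNAfold, the Mir191 hairpin of 74 bases had a minimum free energy of -35.0 kcal/mol and the Mir425 hairpin of 85 bases one of -31.7 kcal/mol. In these predicted structures 17 of 23 bases of miR-191-5p paired with the 3p arm, and 14 of 23 bases of miR-425-5p did. Among the first 4 bases of each strand, 1 base of miR-191-5p and 3 bases of miR-425-5p were unpaired, compared with 0 bases of either 3p strand. The 2 annotations differed on what surrounds the hairpins. In RefSeq both lie within the gene Dalrd3 (chr9:108567484-108572773), although the gene table used gives no exons and cannot show whether they are intronic. In GENCODE M21 Dalrd3 starts at 108569886, 1024 bases beyond Mir425, and both hairpins instead lie within an exon of the long noncoding RNA gene 4833445I07Rik on the same strand (chr9:108567533-108569174). A second 4833445I07Rik transcript ends at 108568774, just before Mir425. Mir191 is also overlapped on the opposite strand by Gm24083, annotated as a miRNA gene, and it is not stated whether the counting used strand.

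miR-191-5p made up nearly all reads of the locus in both libraries. It was counted with 1277 reads in parental exosomes and 87 reads in SDCSC exosomes, from deposited values of 34876.42 and 18945.99 RPM, a unit that scales the reads of each library to the same total. The parental library held 32162 miRNA reads and the SDCSC library 3964, when each miRNA is taken at its highest entry. Relative to these totals miR-191-5p took 3.97% of the parental reads (exact 95% interval 3.76 to 4.19%) and 2.19% of the SDCSC reads (1.76 to 2.70%). The intervals of the shares did not overlap. The share was 1.81-fold lower in SDCSC exosomes (exact conditional 95% interval 1.46 to 2.27), a log2 ratio of -0.86 (-1.19 to -0.54). The interval includes folds below 1.5 and covers counting error alone. Reads copied by PCR are not separate molecules, and the spread between cultures is unknown without a replicate.

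miR-425-5p, the neighbouring 5p strand, was rare. It had 10 reads in parental exosomes and 1 read in SDCSC exosomes, or 273.11 and 217.77 RPM. These counts correspond to 0.0311% (0.0149 to 0.0572%) and 0.0252% (0.000639 to 0.140%) of miRNA reads. At the parental share 1.23 reads would be found in a library of the SDCSC depth, so that the single read lies close to an equal share. The log2 ratio was -0.30 (exact 95% interval -5.74 to 2.51). A difference in miR-425-5p was thus not detectable at this depth, and neither a large fall nor a rise of several fold lies outside the interval.

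The strands miR-191-3p and miR-425-3p were listed with 0 reads in both libraries. A count of 0 allows a share of up to 3 reads, which is 0.00933% at the parental and 0.0757% at the SDCSC depth. No ratio between the conditions was computed for them. Summed over its 4 members, the locus had 1287 reads in parental exosomes, 4.0% of the total (3.79 to 4.22%), and 88 reads in SDCSC exosomes, 2.22% (1.78 to 2.73%). miR-191-5p supplied 99.2% of the locus reads in parental and 98.9% in SDCSC exosomes.

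**Figure D1:**
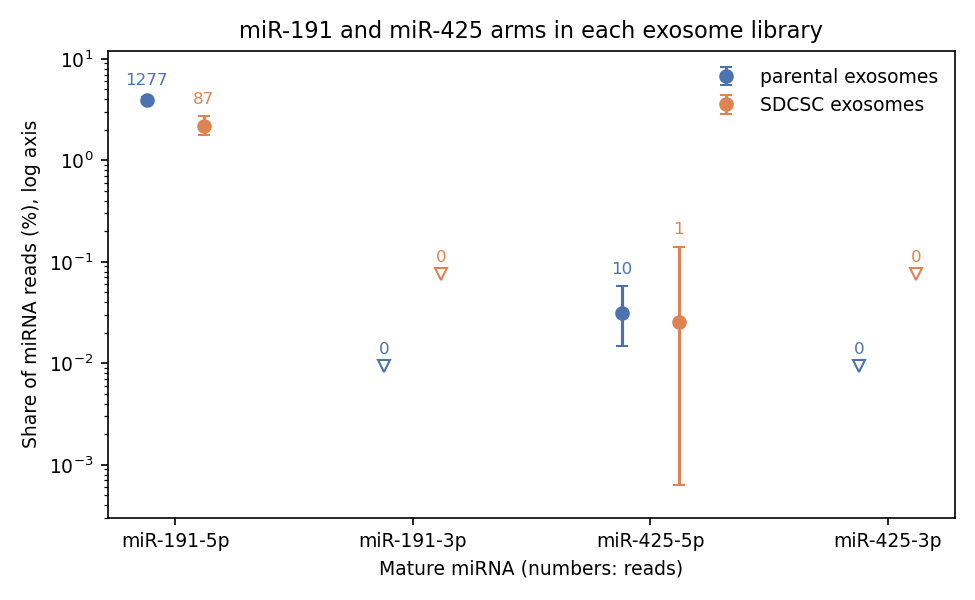
Share of miRNA reads (%, log axis) of each mature miRNA of the locus in parental (blue) and SDCSC exosomes (orange), 1 library each, with exact 95% intervals and the number of reads above each point. Open triangles mark the share that 3 reads would give, where 0 were counted. miR-191-5p lies at 3.97% and 2.19% with intervals that do not overlap, whereas those of miR-425-5p overlap.

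These ratios were set beside those of all other miRNAs in the same 2 libraries. With a read in each library, 116 miRNAs could be compared, of which 37.9% were at least 1.5-fold higher in SDCSC exosomes and 35.3% at least 1.5-fold lower. miR-191-5p was among the lower, 1 of the 2 members in this set, and miR-425-5p lay between the thresholds. A minimum on reads favours miRNAs that are high in the deeper parental library, so a minimum of 0.1% on the mean of the 2 shares, which weights the libraries equally, was added after the data had been seen. It kept 74 miRNAs, of which 23.0% were higher and 50% lower, and 32 of the 74 had a more negative log2 ratio than miR-191-5p. A fall of this size was therefore common in this pair of libraries.

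In the order of reads, miR-191-5p stood 6th of 328 detected miRNAs in parental exosomes and 11th of 124 in SDCSC exosomes. Its neighbours in parental exosomes were miR-21a-5p with 1468 reads above it and miR-151-3p and miR-6240 with 1098 reads each below it. In SDCSC exosomes it was preceded by miR-99b-5p with 120 reads and followed by miR-10b-5p with 57 reads. Of the 23 miRNAs with a mean share of at least 1% over both libraries, 10 were at least 1.5-fold lower in SDCSC exosomes, 7 were higher and 6 lay between, and 7 of the 23 had a more negative log2 ratio than miR-191-5p. miR-425-5p shared its count of 10 reads with 4 other miRNAs in parental exosomes and its single read with 40 others in SDCSC exosomes.

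The miRNAs whose pattern was most like that of miR-191-5p were sought by the Euclidean distance between log2 shares in the 2 libraries, over 115 other miRNAs with a read in each. The nearest was miR-10a-5p at a distance of 1.05, a miRNA encoded in a Hox cluster, with 774 and 148 reads in parental and SDCSC exosomes. It was followed by miR-26a-5p (1.16; 679 and 53 reads), miR-143-3p (1.21; 888 and 185 reads), miR-27b-3p (1.28; 610 and 53 reads) and miR-10b-5p (1.41; 3073 and 57 reads). Of these, miR-26a-5p and miR-27b-3p were lower in SDCSC exosomes like miR-191-5p, with log2 ratios of -0.66 and -0.50, whereas miR-10a-5p and miR-143-3p were higher, at 0.63 and 0.76. miR-10b-5p differed most in its ratio, at -2.73. The distances exceed 1 on the log2 scale, and no miRNA had a pattern close to that of miR-191-5p in both libraries. For miR-425-5p, miR-374b-5p and miR-615-3p had identical counts of 10 and 1 reads, and miR-101a-3p had 11 and 1. Such matches at few reads describe the depth as much as the miRNA.

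**Figure D2:**
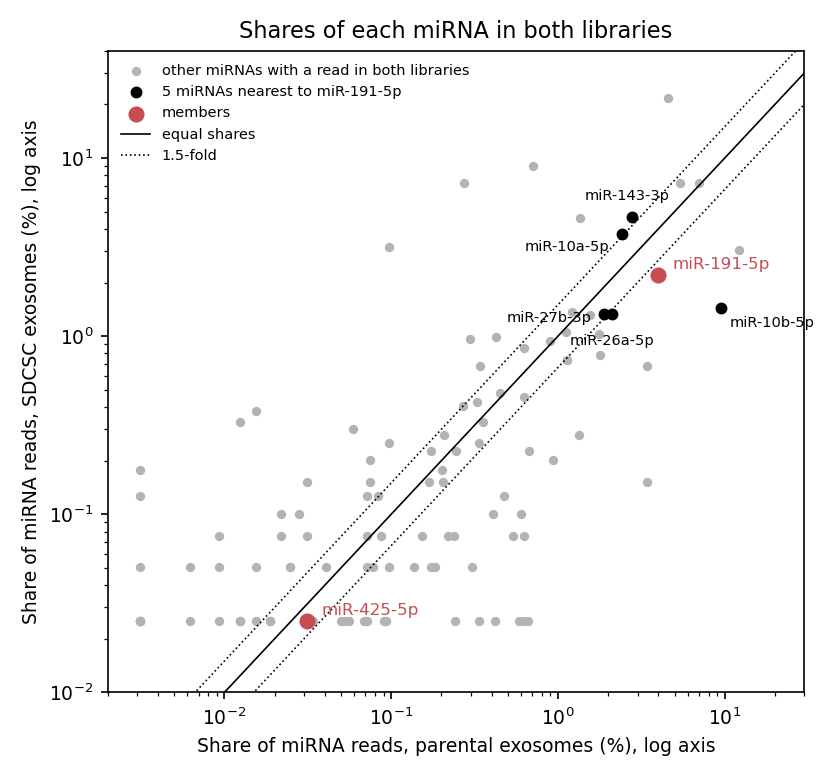
Share of miRNA reads (%, log axes) in parental exosomes against SDCSC exosomes for the 116 miRNAs with a read in each library, with the members in red and the 5 miRNAs nearest to miR-191-5p in black. The solid line marks equal shares and the dotted lines a 1.5-fold difference. miR-191-5p lies just below the lower dotted line, and miR-425-5p lies between the lines at 1 SDCSC read.

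Because both hairpins lie within 543 bases, the reads of the 5p strands were also compared with each other within each library, which does not depend on library scaling. In parental exosomes there were 127.7 reads of miR-191-5p for each read of miR-425-5p (exact 95% interval 69.2 to 267). In SDCSC exosomes the ratio was 87.0, resting on 1 read of miR-425-5p, with an interval from 15.2 to 3475. The interval in SDCSC exosomes contains the whole of the parental interval, so a change of the balance between the neighbours was not detectable.

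The same within-library ratio was taken for 16 other pairs of miRNAs that share a transcript. Some of these miRNAs, among them miR-16-5p, let-7f-5p, miR-181a-5p, miR-181b-5p and miR-194-5p, have more than a single hairpin. Their reads can therefore include those of other transcripts. In parental exosomes 14 of the pairs had reads of both partners, and the more abundant partner exceeded the other by 1.35-fold to 29.3-fold, with a median of 7.60. The 127.7-fold ratio of miR-191-5p to miR-425-5p was above all 14, and its interval lay above those of 13. The interval of miR-451a over miR-144-3p overlapped it (88 against 3 reads, 29.3-fold). In SDCSC exosomes 9 pairs had reads of both partners, with ratios from 1.0 to 26. The interval of miR-191-5p over miR-425-5p lay above that of 1 pair of these 9, miR-221-3p and miR-222-3p, whose more abundant partner was miR-221-3p in parental and miR-222-3p in SDCSC exosomes. Pairs in which a partner had 0 reads give no ratio, among them miR-143-3p and miR-145a-5p with 185 and 0 reads in SDCSC exosomes. These are ratios of reads, which were not calibrated to molecules.

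**Figure D3:**
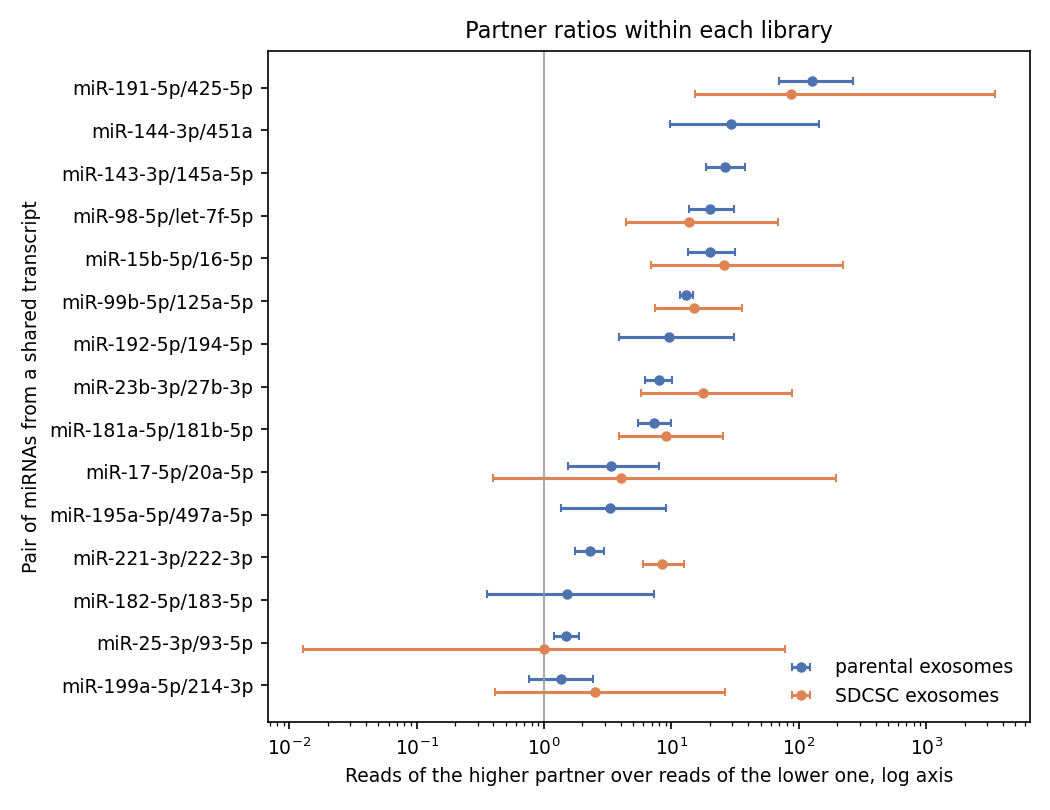
Reads of the more abundant partner divided by reads of the other (log axis) for miR-191-5p with miR-425-5p and the 14 other pairs with reads of both partners in parental exosomes, with exact 95% intervals, for parental (blue) and SDCSC exosomes (orange). SDCSC points are missing where a partner had 0 reads, and the more abundant partner may differ between the libraries. This pair stands at the top with 127.7 in parental exosomes, and its SDCSC interval, from 15.2 to 3475, is the widest to the right.

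All reads of both hairpins came from the 5p arm. For miR-191 all 1277 parental reads and all 87 SDCSC reads came from the 5p arm, which gives a 5p share of 100%. A count of 0 allows a 3p share of up to 0.235% in parental and 3.45% in SDCSC exosomes. For miR-425 with 10 parental reads, the same limit gives a 3p share of up to 30%, and the exact interval reaches 30.8%. The single SDCSC read says nothing of the arms of miR-425. A change of arm between the conditions was thus not seen for miR-191, and for miR-425 it could not be examined.

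Pairs of arms were formed where the 5p and 3p strands are listed under the same name, which gave 749 pairs. miRNAs with a copy number in the name of an arm were left out, among them miR-26a-5p (679 parental reads) and miR-16-5p (502 parental reads). Of the 749 pairs, 46 had at least 50 reads of both arms together in parental exosomes, and 15 of these had a single arm only. The median share of the less abundant arm was 1.52%. Of the 12 pairs with at least 500 reads, 6 had reads of 1 arm only, namely miR-22, miR-191, miR-143, miR-486a, miR-486b and miR-10a. miR-191 had the second highest read number of these 6, after miR-22 with 2253 reads. The counts of miR-486a and miR-486b were nearly equal, at 856 and 853 reads, and whether the same reads were counted under both names was not examined. At comparable depth the less abundant arm had 19 of 1487 reads for miR-21a (1.28%) and 202 of 1300 for miR-151 (15.5%). For miR-151 this was the 5p arm, which was the more abundant one in SDCSC exosomes, with 18 reads against 6. In SDCSC exosomes 9 of 11 pairs with at least 50 reads had a single arm, miR-191 among them. An arm listed at 0 in the shallow SDCSC library was therefore the common case.

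**Figure D4:**
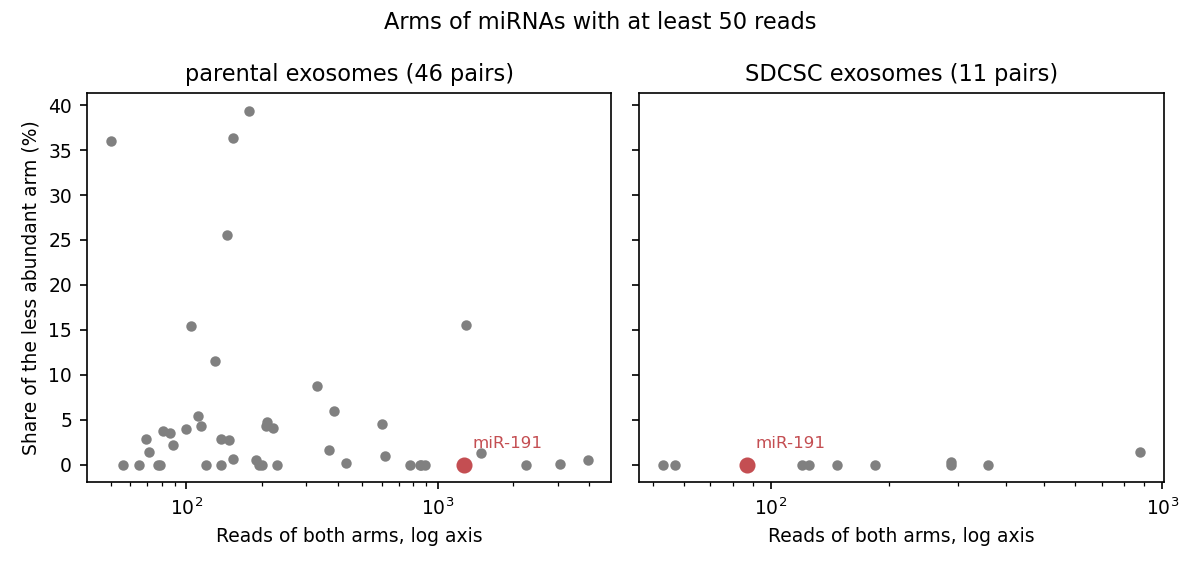
Share of the less abundant arm (%) against the reads of both arms (log axis), with miR-191 in red. Drawn are miRNAs with both arms listed under the same name and at least 50 reads in parental (46 pairs, left) and SDCSC exosomes (11 pairs, right). miR-191 lies at 0% in both libraries, at 1277 and 87 reads, and miR-425 had too few reads to be drawn.

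The use of miR-191-5p as a reference was examined next, with 15 miRNAs often used as normalizers in qPCR, both 5p members included. A read in each library was found for 13 of the 15, and miR-24-3p was read in parental exosomes only (51 and 0 reads) and miR-106a-5p in neither. Of the 13, 9 were at least 1.5-fold lower in SDCSC exosomes, 0 were higher and 4 lay between, with a median log2 ratio of -1.44, compared with 0.06 over all 116 miRNAs with a read in each library. A read in each library, however, drops scarce miRNAs unless they are high in the shallower SDCSC library, which raises the median over all miRNAs. With a mean share of at least 0.1%, 7 of 10 were lower and 0 higher, to be set beside the 50% lower and 23.0% higher of all 74 miRNAs. The medians of these sets lay closer together, at -1.32 for the 10 normalizers and -0.57 for all 74 miRNAs. The log2 ratios ran from -4.62 for miR-25-3p, with 199 and 1 reads, to -0.12 for miR-30e-5p, with 115 and 13 reads. miR-191-5p was 6th from the top of the 13, and miR-425-5p was 3rd from the top.

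**Figure D5:**
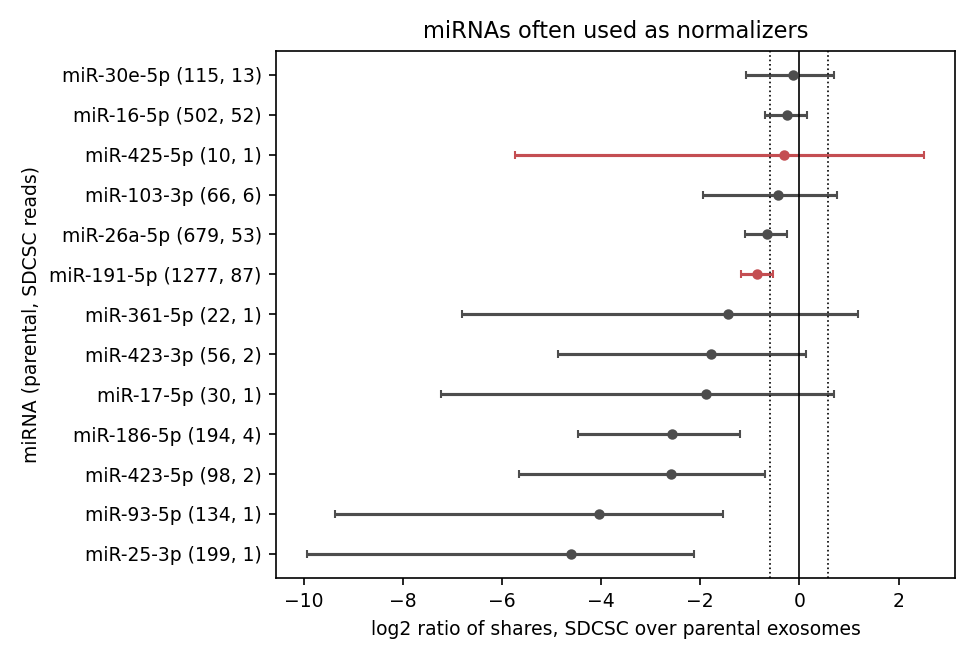
log2 ratio of shares, SDCSC over parental exosomes, with exact conditional 95% intervals for the 13 normalizer miRNAs with a read in each library, named with their parental and SDCSC reads. The dotted lines mark 1.5-fold and the members are in red. All 13 points lie below 0, from -4.62 for miR-25-3p to -0.12 for miR-30e-5p, with miR-191-5p at -0.86.

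A ratio of miR-191-5p to another miRNA of the same library needs no library total. Relative to miR-16-5p (502 and 52 reads), a broadly expressed miRNA that limits cell cycle progression, miR-191-5p went from 2.54 reads per read in parental to 1.67 in SDCSC exosomes, a log2 change of -0.60 (exact 95% interval -1.14 to -0.06). Relative to miR-26a-5p (679 and 53 reads) it went from 1.88 to 1.64, a log2 change of -0.20 (-0.72 to 0.34). Relative to miR-30e-5p (115 and 13 reads) the change was -0.73 (-1.63 to 0.28), and relative to miR-22-3p (2253 and 288 reads) it was -0.91 (-1.28 to -0.54). These references were the normalizers with at least 10 reads in each library, a minimum that keeps those least reduced in SDCSC exosomes, with miR-22-3p added after its values were known. Over all 12 other normalizers with a read in each library, the ratio of miR-191-5p was lower in SDCSC exosomes against 5 and higher against 7, with log2 changes from -0.73 against miR-30e-5p to 3.76 against miR-25-3p and a median of 0.76. The 7 references against which it was higher had 1 to 4 SDCSC reads, and no interval was computed for these changes. The log2 share ratios of some of them, however, had exact intervals wholly below that of miR-191-5p (-1.19 to -0.54). These were miR-25-3p (-9.93 to -2.12), miR-93-5p (-9.36 to -1.54) and, narrowly, miR-186-5p (-4.47 to -1.20). The intervals of miR-423-5p, miR-423-3p, miR-17-5p and miR-361-5p overlapped that of miR-191-5p. Of the 5 references against which miR-191-5p was lower, miR-425-5p had 1 SDCSC read and miR-103-3p had 6, and the rest had at least 10. Both the direction and the size of the change in miR-191-5p, as point values, thus depended on the reference.

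Markers were checked beside these results. Of 9 miRNAs typical of colon epithelium, 3 were read in parental exosomes and 2 others in SDCSC exosomes, with miR-192-5p at 48 and 0 reads the most abundant, and miR-200a-3p, miR-200c-3p, miR-141-3p and miR-375-3p were at 0 in both. Of 9 miRNAs of blood and immune cells, all 9 were read in parental and 2 in SDCSC exosomes, with summed shares of 3.77% and 0.0757%, and 3 of 4 muscle miRNAs were read in parental exosomes (0.410%) and 0 of 4 in SDCSC exosomes. The summed share of each list was lower in SDCSC exosomes, as that of miR-191-5p was, with 0.171% and 0.0505% for colon epithelium. Within that list miR-200b-3p and miR-429-3p went the other way, from 0 to 1 read each. Most blood and immune reads in parental exosomes were of miR-486a-5p, 856 of 1212. Over all miRNAs, 328 were read in the parental and 124 in the shallower SDCSC library. miR-191-5p is itself found in blood cells, and the part of these lists in its lower share was not tested. With the blood and immune list left out of both totals, a choice made after seeing the data, the log2 ratio of miR-191-5p was -0.91.

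Sequence features that the choice of members did not use were also compared. The 4-base motifs GGAG and CCCU, which have been described in miRNAs sorted into exosomes, were searched on the given strand of the mature sequences. They do not overlap each other in letters, and 0 of the 4 members held either. Of the mature miRNAs in RefSeq 14.2% held GGAG and 11.4% held CCCU, and among the 294 matched miRNAs with a read the shares were 9.86% and 9.52%. The absence says only that these letters are not in these sequences. miR-191-5p starts with C, whereas miR-425-5p starts with A. Their GC contents were 52.2% and 47.8%, and those of miR-191-3p and miR-425-3p were 54.5% and 61.9%.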

How the data were processed

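Small RNA of exosomes was sequenced by the authors on a NextSeq 500 after TruSeq library preparation, the adapter was clipped and short reads were discarded with Trimmomatic. The authors deposited RPM values for each mature miRNA entry, scaled to all miRNA reads, and the labels name mm10. For exosomal RNA the methods name ncPRO-seq with RepeatMasker and Rfam features. Whether it made the deposited values, and the miRBase release, are not given in the sources used here.

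Reads were recovered by dividing each RPM value by that of 1 read (27.31 for the parental library, 217.77 for the SDCSC library), and 100% of nonzero values came back whole to within 0.01 RPM. Entries summed to 36615 and 4592 reads. The highest entry per name was used, as 83 of 1915 names occur more than once. Each member has a single entry.

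Shares have exact Clopper-Pearson 95% intervals, and ratios have exact conditional intervals. With 1 library per condition no test was made, apart from an alternative count test of the reads. The members, lists and alternatives were chosen with earlier results of these data known. The texts name the members, the 5 and 3 miRNAs nearest to the 5p members, neighbours in the order of reads, miRNAs with a member's seed, and the lists. Interval and read recovery were tested on simulated data. Alternatives were other library scalings, filters, folds and added reads. Versions were Python 3.11.15, scipy 1.17.1, numpy 2.4.6, pandas 2.3.3, matplotlib 3.10.9, R 4.3.3, edgeR 4.0.16 (TMM factors) and RNAfold 2.7.2.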

Additional observations from a re-analysis of the deposited data

How the results depend on the processing

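No paired analysis was possible because only a single library was made from either kind of exosome. The log2 ratio of miR-191-5p ranged from -0.92 to -0.69 under the other library scalings and stayed at least 1.5-fold lower, except that without any scaling it was -3.88, which ignores that the parental library is deeper. That of miR-425-5p changed sign, to 1.70, with 5 reads added to both libraries, within its interval. Taking totals over all entries, the locus had 3.51% of reads in parental exosomes. Without the most abundant miRNA it had 4.56% and 2.84%. The arm shares and the ratio of the 5p strands stayed within their intervals with 0.5 reads added.

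Of all miRNAs, 44 were higher and 41 lower in the setting reported. Without scaling there were 8 and 100, with a read in either library 154 and 102, and with at least 10 reads in each library 12 and 10. With at least 50 reads over both there were 10 higher and 38 lower. With a mean share of at least 0.1%, chosen after seeing the data, there were 17 higher and 37 lower. A count test of the reads (two-sided Fisher's exact test, Benjamini-Hochberg adjusted over 336 miRNAs), which sets library against library rather than condition against condition, left 16 and 23 of the miRNAs with a read in each library, and 16 and 31 of all 336. The cause of these changes was not tested beyond the number of miRNAs that each filter admits. The 3964 SDCSC reads limit all statements on miR-425 and on the 3p strands.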

Other observations

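The first base of miR-191-5p is C, and after the values had been seen, the matched miRNAs with a mean share of at least 0.1% over both libraries were grouped by their first base. Of 12 that start with C, 10 were at least 1.5-fold lower in SDCSC exosomes and 2 higher, compared with 7 lower and 4 higher of 17 that start with A and 10 lower and 10 higher of 32 that start with U. Among miRNAs with a read in each library, 10 of 16 starting with C were lower and 5 higher, against 9 lower and 13 higher of 31 with A and 14 lower and 21 higher of 53 with U. With G, 0 reached the mean share, and of 4 with a read in each library 0 were lower and 4 higher. Over all miRNAs, matched or not, 50% were lower and 23.0% higher at that mean share. With a read in each library 35.3% were lower and 37.9% higher. The counts for C include miR-191-5p. Besides miR-191-5p (log2 ratio -0.86), abundant miRNAs starting with C were miR-99b-5p (-2.01) and miR-6240 (-2.33). Sequences starting with C took 29.1% of matched parental and 7.45% of matched SDCSC reads, or 16.9% and 4.37% without miR-99b-5p. The sequence table covered 294 of 336 miRNAs with a read, holding 83.3% of parental and 93.7% of SDCSC reads. The grouping was not tested, and with 1 library per condition the first base cannot be told apart from other differences between the libraries.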
